A study of Mus musculus with 7 samples.

Results

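The postsynaptic density is the protein sheet that lies under the membrane of an excitatory synapse, opposite the site of transmitter release. Its scaffold proteins hold glutamate receptors in place in stacked layers. Membrane-associated guanylate kinases (the Dlg proteins) bind the tails of receptors and of their auxiliary subunits, Dlgap proteins bind the guanylate kinase domain of Dlg proteins, and Shank and Homer proteins form the deeper layer. Regulators of the small GTPases Rac, Rap and Arf sit on this scaffold and act on actin and on receptor traffic in the dendritic spine. Most excitatory synapses of hippocampal pyramidal and granule cells are made on such spines.

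The genes described here are 33 named members of this scaffold and of its GTPase regulators, chosen by function from a table of 27583 genes. These genes and the gene lists used below were chosen with earlier results of these data known. All 33 were in the table. They comprise 5 membrane-associated guanylate kinases, 3 Shank genes, 5 genes of Dlgap proteins and the Dlg4-binding protein Begain, 2 Homer genes, 6 genes of other scaffolds and AMPA receptor adaptors, 7 GTPase regulators, and 5 genes of actin- or adhesion-linked proteins. A further 49 postsynaptic genes were read the same way.

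RNA was sequenced from 7 hippocampus samples of male wild-type C57BL/6 mice (C57BL6/J in the sample titles), in a series on hippocampus after spinal cord injury and in healthy controls. The labels of the 7 samples are alike, so which animals were injured is not known here and no injured group was compared with a control group. The labels do not state ages, injury time or whether each library came from its own animal. Libraries are named 1 to 7 as in the table, no test between groups was possible, and values are given per library or as a median with the lowest and highest library.

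Levels are FPKM, fragments per kilobase of gene length scaled to the mapped total of the library. Depth was nearly even, at an estimated 37324400 to 38448100 reads per library. Markers of the labelled tissue were present: all 10 listed excitatory neuron genes and 12 of 13 dentate granule cell genes had a median FPKM of at least 1. Library 5 stood apart. All 20 listed genes of striatal projection neurons were highest there, with a summed FPKM of 2410 against 165 to 196 in the other 6 libraries, and 8 of the 10 excitatory neuron genes were lowest there (sum 1630 against 1900 to 2440). Drd1, Drd2 and Adora2a, which define striatal projection neurons, had 46.4, 44.5 and 61.6 FPKM in library 5 and at most 1.11 elsewhere. Each result on library 5 is therefore given beside the range of the other 6. In bulk RNA, fewer cells of a type and less RNA per cell cannot be told apart.

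**Figure D1:**
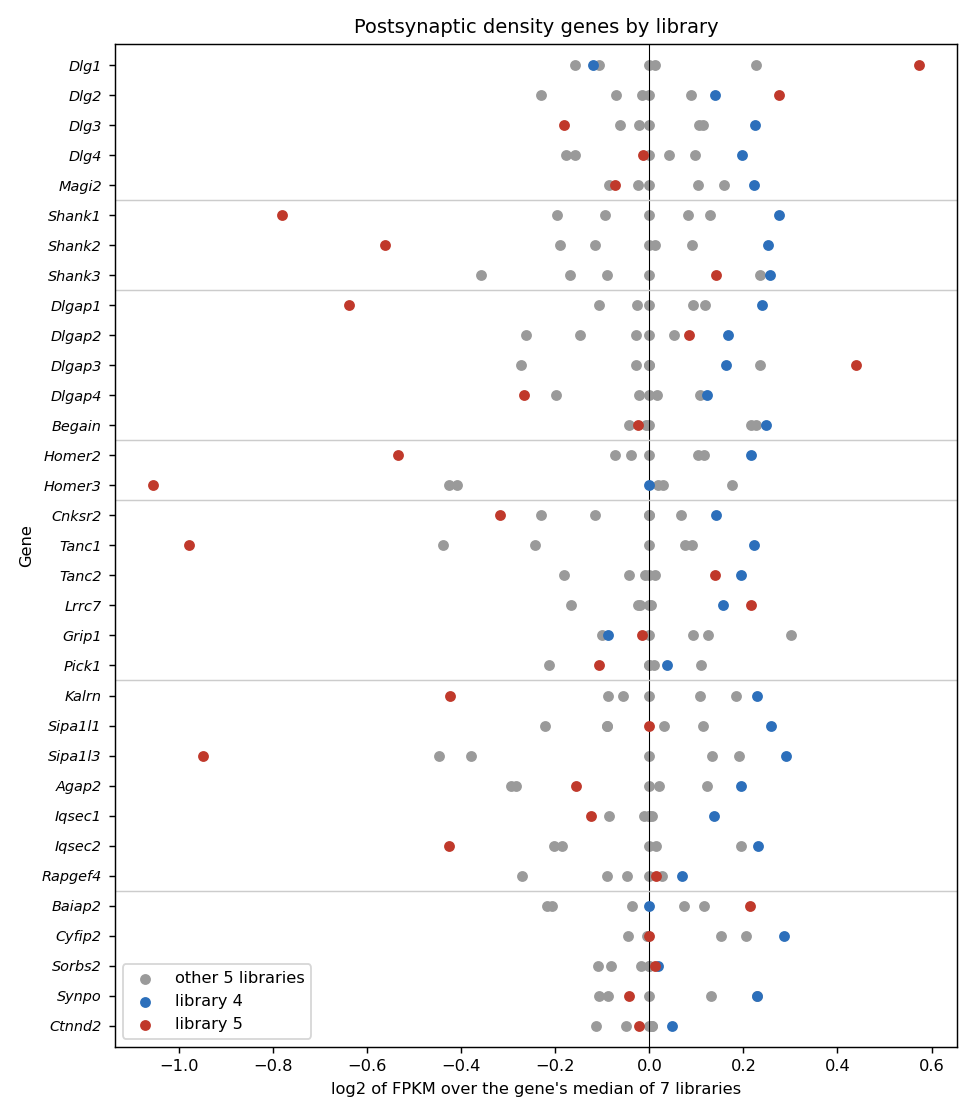
Level of each of the 33 genes in each library, as log2 of its FPKM over the gene's median of the 7 libraries; each point is 1 library, lines separate the gene groups. Library 5 (red) lies far to the left for Homer3, Tanc1, Sipa1l3 and Shank1 and to the right for Dlg1 and Dlgap3, while library 4 (blue) is the rightmost point for 25 genes.

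Nearly all of these genes were expressed, at levels that differed widely. Of the 33, 32 had a median FPKM of at least 1, and the medians ran from 0.576 for Grip1 to 146 for Agap2. Agap2, which encodes an Arf GTPase-activating protein, stood at percentile 97.2 of the 12052 genes with a median of at least 1, and Dlg4, which encodes PSD-95, stood at percentile 95.0. Dlgap2 was the lowest of the 32, at percentile 24.7. These levels rest on the gene lengths that the authors used, and the rank of Dlgap2 changed with other lengths, as described below. The highest library was at least 25% above the lowest for 27 of the 33, beside 63.0% of all genes at that level, and the median of this ratio was 1.35 for the 33 and 1.31 for all. Counting error was small beside these ratios. The genes had 696 to 39496 reads in a library, for a counting error of at most 3.79%.

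In library 5, 13 of the 33 genes had their lowest level, beside 26.0% of all genes, and 5 had their highest, beside 21.1%. At least 10% below every other library were 9 genes, Homer3, Shank1, Tanc1, Dlgap1, Sipa1l3, Homer2, Shank2, Kalrn and Iqsec2, beside 11.9% of all genes. At least 10% above every other library were Dlg1 and Dlgap3, beside 9.2% of all genes. Of the 33, 15 genes lay within the range of the other 6 libraries. The genes not named here that were lowest or highest in library 5 lay outside that range by less than 10%. The median gene of the 33 was at -0.05 on the log2 scale relative to its 7-library median, against 0.0 for all genes. When libraries were scaled to 20 general neuron genes, which were themselves lower in library 5 (sum 3770 against 4080 to 4360), 9 of the 33 were lowest there, beside 11.1% of all genes, and 11 highest, beside 49.3%. The nearest past the 10% margin were Iqsec2, 14.2% below the lowest other library, and Dlgap3, 15.1% above the highest. The nearest short of it were Dlg3, 7.67% below, and Dlg2, 9.85% above. The part of the striatal and excitatory neuron transcripts in these counts was not tested.

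Library 4 was the highest for 25 of the 33 genes, beside 15.6% of all genes. The count was 24 to 26 genes under the scalings to total, upper quartile, median ratio and total without mitochondrial genes. It was 18 when libraries were scaled to general neuron genes. The share of all genes highest in library 4 was not computed under these scalings, so these counts stand without it. On FPKM as deposited, no gene of the 33 was lowest in library 4, beside 20.1% of all genes. The summed FPKM of the whole table was lowest in library 4 (327826, others 339204 to 353622), while the sum of the excitatory neuron list was highest (2440). The part of either in this count was not tested.

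The 4 Dlg genes encode the scaffolds that bind NMDA receptors directly and AMPA receptors through auxiliary subunits. Dlg4 (PSD-95) had 94.3, 98.0, 91.6, 105, 90.7, 81.0 and 82.1 FPKM in libraries 1 to 7. Dlg3 (SAP102), the form known for its early rise in development, had 35.8, 35.6, 31.7, 38.7, 29.2, 33.1 and 32.6. Both were highest in library 4, and Dlg3 was lowest in library 5 by a margin smaller than 10%. Dlg2 (PSD-93) had 6.75, 6.82, 5.81, 7.51, 8.25, 7.25 and 6.49 FPKM, and Dlg1 (SAP97), a trafficking partner of the AMPA receptor subunit GluA1, had 6.35, 5.69, 5.90, 5.84, 9.45, 7.43 and 6.40. Dlg1 in library 5 was 1.49 times its median and 27.2% above the next library, so the 4 paralogs did not share a direction there. Magi2 (S-SCAM), a related scaffold with inverted domain order, stayed between 11.3 and 14.0.

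Of the Shank genes, Shank1 and Shank2 were lowest in library 5 and Shank3 was not. Shank1 had 25.1, 23.7, 25.9, 28.7, 13.8, 20.7 and 22.2 FPKM, and the library 5 value was 33.3% below the lowest of the others. The gene lies at chr7:44310253-44360572 on the plus strand (mm10). Shank2 had 6.27, 6.68, 6.32, 7.47, 4.25, 5.50 and 5.79, 22.8% below in library 5. Shank3, which is known for its high expression in striatum, had 15.4, 16.4, 19.3, 19.6, 18.1, 12.8 and 14.6. Its lowest libraries were 6 and 7, and library 5 lay in the upper part of its range. Shank1 exceeded Shank3 in 6 of 7 libraries, and in library 5 the ratio of Shank1 to Shank3 was 0.763, against 1.63 at the highest.

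The Dlgap genes, whose proteins join Dlg to Shank, did not share a direction in library 5. Dlgap1 (GKAP) had 40.0, 40.7, 36.8, 44.3, 24.1, 37.5 and 34.8 FPKM, 30.8% below the lowest other library in library 5. Dlgap3 (SAPAP3), whose loss in mice causes a corticostriatal grooming phenotype, had 36.0, 36.0, 42.4, 40.3, 48.8, 29.8 and 35.3, highest in library 5. Dlgap1 exceeded Dlgap3 in 4 of 7 libraries, and the ratio of Dlgap1 to Dlgap3 was 0.494 at its lowest and 1.26 at its highest. Dlgap4 had 8.40, 8.5, 9.05, 9.14, 6.98, 7.32 and 8.27, and Dlgap2 had 3.50, 3.43, 2.92, 3.93, 3.71, 3.63 and 3.16. Dlgap4 was lowest in library 5 by 4.62%, and Dlgap2 lay within the range of the others. Begain ranged from 22.8 to 27.9.

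Homer2 and Homer3 were lowest in library 5, while Homer1, from the further list, was highest there, with 10.9 FPKM against 7.45 to 9.21. Homer proteins bind Shank and group I metabotropic glutamate receptors. Homer3 had 24.4, 27.0, 24.2, 23.9, 11.5, 18.0 and 17.8 FPKM. Library 5 held 0.482 of the median, from 1306 reads, and libraries 6 and 7 also lay below libraries 1 to 4. Homer2 had 7.33, 6.76, 6.43, 7.85, 4.67, 7.26 and 6.58, so that libraries 6 and 7 were not low for it. Homer3 lies at chr8:70282827-70294361 on the plus strand (mm10, GENCODE M21), where 25.4% of the exon bases of Homer3 overlap Ddx49 on the opposite strand. Ddx49 itself had 13.2 FPKM in library 5 and 11.0 to 14.6 elsewhere, and whether reads were counted by strand is not given in the sources used here.

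Among the other scaffolds, Tanc1 varied most. Tanc1 and Tanc2 encode large ankyrin-repeat scaffolds that bind PSD-95. Tanc1 had 17.7, 17.9, 16.8, 19.6, 8.52, 12.4 and 14.2 FPKM, 31.3% below the lowest other library in library 5. Tanc2 had 8.94, 8.74, 7.94, 10.3, 9.92, 9.07 and 9.0, with library 5 second only to library 4. Tanc1 exceeded Tanc2 in 6 of 7 libraries, with a ratio of 0.859 in library 5. Cnksr2, a scaffold of Ras signalling, had 35.6, 34.0, 29.0, 37.5, 27.3, 34.0 and 31.4, lowest in library 5 by 5.62%. Lrrc7 (densin), which binds CaMKII, had 5.33, 5.32, 4.74, 5.93, 6.18, 5.25 and 5.23, highest in library 5 by 4.25%. The adaptors of AMPA receptor subunit GluA2 did not single out library 5: Grip1 had 0.628, 0.537, 0.576, 0.542, 0.570, 0.710 and 0.614, and Pick1, which acts in receptor endocytosis, ranged from 13.2 to 16.5.

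Of the 7 GTPase regulators, 4 were lowest in library 5 and none was highest, beside 26.0% and 21.1% of all genes. In a group of 7 such counts are a description. Sipa1l3, related to the Rap GTPase-activating protein SPAR, had 15.3, 14.7, 13.4, 16.4, 6.94, 9.83 and 10.3 FPKM, the widest spread of the 33 with a highest-to-lowest ratio of 2.36. Its paralog Sipa1l1 (SPAR) had 34.2, 32.3, 29.7, 37.8, 31.6, 29.7 and 27.1, with library 5 at the median. Without library 5 the ratio of highest to lowest was 1.66 for Sipa1l3 and 1.39 for Sipa1l1. Kalrn, which encodes a Rac exchange factor needed for spine growth, had 7.99, 8.43, 6.98, 8.69, 5.53, 7.42 and 7.14, 20.8% below the lowest other library in library 5. The Arf6 exchange factor gene Iqsec2, an intellectual disability gene on the X chromosome, had 20.9, 23.7, 20.7, 24.3, 15.4, 18.2 and 18.0. Its paralog Iqsec1 stayed between 22.2 and 26.6, lowest in library 5 by 2.60%. Agap2 had 146, 159, 148, 167, 131, 119 and 120, with libraries 6 and 7 below library 5. Rapgef4 (Epac2), a cAMP-activated exchange factor for Rap, had 54.0, 53.0, 49.8, 55.6, 53.5, 51.3 and 43.9, lowest in library 7.

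Genes that tie the density to actin and adhesion included the least variable of the 33. None of these 5 was lowest in library 5, beside 26.0% of all genes. In a group of 5 such a count is a description. Sorbs2, an SH3 adaptor gene, ranged from 7.86 to 8.59 FPKM, the smallest ratio of the 33 at 1.09, and Ctnnd2 (delta-catenin) ranged from 24.4 to 27.3. Cyfip2, a subunit of the WAVE complex that drives actin branching, had 54.0, 56.0, 48.4, 59.3, 48.6, 48.5 and 47.1, and Synpo (synaptopodin), which marks the spine apparatus, had 18.4, 19.7, 16.8, 19.7, 16.3, 15.8 and 15.6. In both, library 5 lay inside the range of the others. Baiap2 (IRSp53), which bends the spine membrane downstream of Rac, had 42.7, 44.0, 39.6, 40.6, 47.1, 35.2 and 34.9, highest in library 5 by 7.05%.

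**Figure D2:**
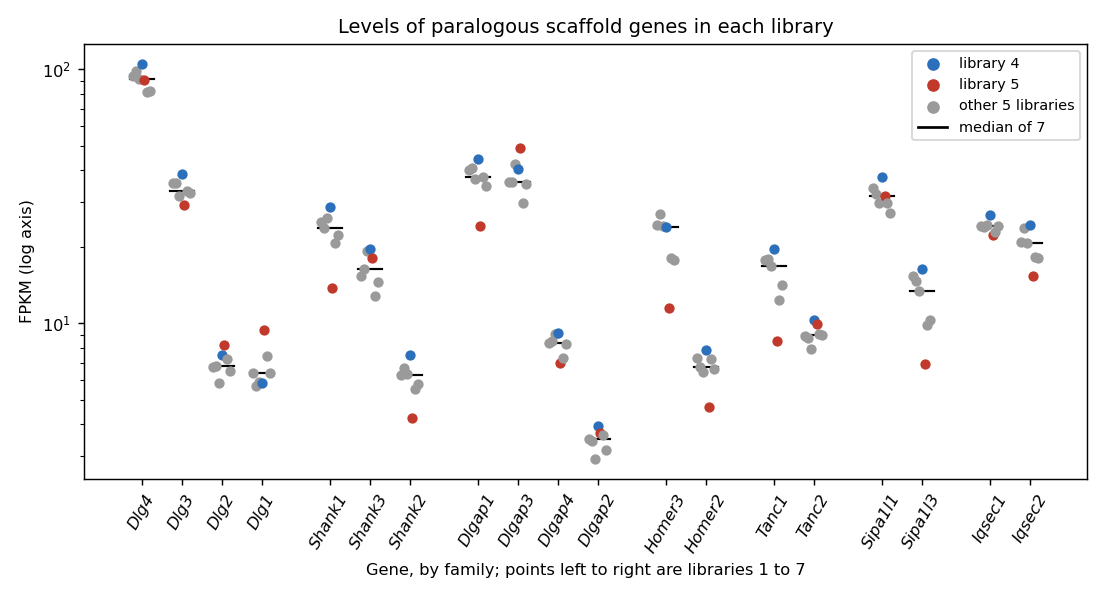
FPKM of paralogous genes on a log axis, with 1 point per library from 1 to 7 left to right and a bar at the median. Dlg4 lies between 81.0 and 105 FPKM, above every other gene shown, and in library 5 (red) Shank1 drops below Shank3 and Tanc1 below Tanc2. Dlgap1 lies below Dlgap3 in libraries 3, 5 and 7.

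Ranked by deposited FPKM, the order of medians was Dlg4, Dlg3, Dlg2, Dlg1, then Shank1, Shank3, Shank2, then Dlgap1, Dlgap3, Dlgap4, Dlgap2, and Homer3 over Homer2. The ranges over the 7 libraries did not overlap for Dlg4 over Dlg3 (2.77-fold by medians), Dlg3 over Dlg2 (4.85), Shank3 over Shank2 (2.61), Dlgap3 over Dlgap4 (4.29), Dlgap4 over Dlgap2 (2.40), Homer3 over Homer2 (3.53) and Sipa1l1 over Sipa1l3 (2.37). Neighbours whose ranges overlapped were Dlg2 and Dlg1 (1.07), Dlgap1 and Dlgap3 (1.04), Shank1 and Shank3 (1.44), Tanc1 and Tanc2 (1.87), and Iqsec1 and Iqsec2 (1.17). Of these, Iqsec1 was the higher in all 7 libraries.

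This ranking rests on the gene lengths that the authors divided by, and those could be read back from the values. Within a gene, FPKM goes up in equal steps, 1 step for each read. From the steps came whole read numbers for all 33 genes, within 1.4e-05 of a read, and the length of each gene, within 4.7e-05 of a base. The length used was 77184 bases for Kalrn, 47155 for Dlg2, 44608 for Lrrc7, 34693 for Grip1, 25501 for Dlgap2 and 24124 for Dlgap4. The longest GENCODE M21 transcripts of these genes have 10438, 7813, 7321, 5451, 4503 and 4851 bases, so the lengths used were 7.39, 6.04, 6.09, 6.36, 5.66 and 4.97 times as long. For Dlg4 (6644 bases), Homer2 (11457) and Agap2 (6168) the lengths used were 1.05, 1.04 and 1.09 times the longest transcript. A length over 2 times the longest transcript was used for 11 of the 33 genes, and for 11.1% of the 13461 genes whose lengths could be read back and matched to GENCODE. Lengths do not touch the comparison of 1 gene between libraries, only the comparison of levels between genes.

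With the same reads set over the longest transcript, several genes changed rank. Dlg2 went from 6.82 to 41.2 at the median, beside 43.3 for Dlg3, and the ranges of these genes then overlapped (35.1 to 49.8 and 38.3 to 50.6). Dlg4 remained the highest Dlg gene at 96.2, and Dlg1 became the lowest by a clear margin at 17.4. Kalrn went from 7.42, rank 26 of 33, to 54.9, rank 7. Dlgap4 went from 8.40 to 41.8 and Dlgap2 from 3.50 to 19.8. Lrrc7 went from 5.32 to 32.4. Iqsec2 (33.5) stood above Iqsec1 (26.4) in each of the 7 libraries, the opposite of the deposited order. Homer3 over Homer2 (3.90), Sipa1l1 over Sipa1l3 (1.62) and Shank3 over Shank2 (1.80) kept their order with ranges apart. Set over the union of all GENCODE exons, Dlg4 had 45.9 and Dlg3 37.2 with overlapping ranges, and Dlgap3 (49.9) stood above Dlgap1 (30.1) in each library. Agap2 ranked first of the 33 under all 3 lengths (146, 151 and 159), and Grip1 last (0.576, 2.48 and 3.67).

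**Figure D3:**
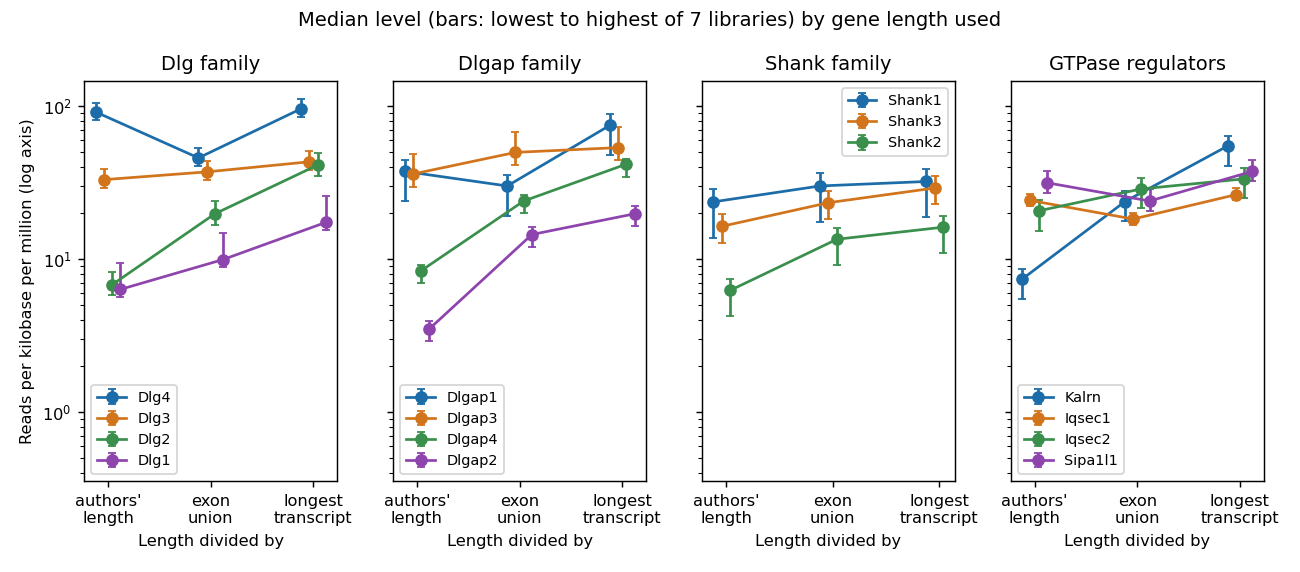
Median level of selected genes on a log axis when the same reads are divided by the length the authors used, by the union of GENCODE exons or by the longest GENCODE transcript; bars run from the lowest to the highest of 7 libraries. Dlg2, Dlgap4, Dlgap2 and Kalrn move up, and Dlg2 reaches the level of Dlg3 with the longest transcript.

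The paralogs share only short exact stretches of coding sequence. The longest stretch shared without mismatch between the coding sequences of any 2 paralogs (GENCODE M21 transcripts) was 15 to 32 bases in 19 pairs. The stretches shown, in capitals because every base is shared, are those of 6 of the 19 pairs, shown as examples that include the shortest and the longest.
Iqsec1 and Iqsec2: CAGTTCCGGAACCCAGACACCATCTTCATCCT
Dlg2 and Dlg4: GGCCTGGGCTTCAACATTGTGGGCGG
Dlg2 and Dlg3: GCCTCTGATGATGAGTGGTGGCAAGC
Shank1 and Shank3: CTGCTGGACAAGGGGCTGGACCCCAA
Dlgap1 and Dlgap3: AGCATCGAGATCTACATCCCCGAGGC
Homer2 and Homer3: AGAAGCTGCCAGGCT
The Homer pair shares the shortest such stretch, 15 bases, and the Iqsec pair the longest, 32. The stretch of Dlgap1 and Dlgap3 is 1 of 2 of that length. Over whole transcripts, 14 of the 33 genes shared no 50-base word with any other gene on either strand, and more than 5% of such words were shared only for Homer3 (21%) and Pick1 (17.8%), which overlap neighbouring genes. Read length is not given in the sources used here.

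Promoters are shown for 2 genes that were low in library 5 and for the 2 that were high. Windows of 250 bases before a start site (RefSeq, GRCm38.p6) were searched on both strands for the E-box CACGTG, which the circadian activators CLOCK and BMAL1 bind, the cAMP response element TGACGTCA, the EGR motif GCGTGGGCG and the GC box GGGCGG. Of 33 genes, 29 had a window. The E-box was present in 6 of the 54 windows of these genes (Begain, Dlg1, Dlgap1 and Sipa1l3) and in 6.02% of all 32851 windows. The GC box was in 28 of the 54 and in 32.7% of all, the EGR motif in 1 (Shank3) and in 0.536%, and the cAMP response element in none and in 1.55%. Below, capitals mark every match to these 4 motifs on either strand. Homer3 and Sipa1l3 were lowest, and Dlg1 and Dlgap3 highest, in library 5.
Homer3, chr8:70282749-70282998, plus strand: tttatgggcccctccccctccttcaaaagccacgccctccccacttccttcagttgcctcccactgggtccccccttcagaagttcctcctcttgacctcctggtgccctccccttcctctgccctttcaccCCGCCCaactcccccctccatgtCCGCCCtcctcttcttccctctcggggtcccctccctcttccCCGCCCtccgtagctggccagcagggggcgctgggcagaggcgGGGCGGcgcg
Sipa1l3, chr7:29505461-29505710, minus strand: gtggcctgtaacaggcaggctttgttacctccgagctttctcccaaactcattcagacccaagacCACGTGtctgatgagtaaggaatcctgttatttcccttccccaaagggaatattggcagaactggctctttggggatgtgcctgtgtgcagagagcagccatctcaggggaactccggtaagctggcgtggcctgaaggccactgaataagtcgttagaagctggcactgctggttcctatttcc
Dlg1, chr16:31663193-31663442, plus strand: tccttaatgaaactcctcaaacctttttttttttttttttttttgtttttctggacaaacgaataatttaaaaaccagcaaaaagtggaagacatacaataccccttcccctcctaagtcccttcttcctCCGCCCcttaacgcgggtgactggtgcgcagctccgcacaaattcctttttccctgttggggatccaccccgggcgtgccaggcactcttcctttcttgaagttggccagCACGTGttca
Dlgap3, chr4:127172630-127172879, plus strand: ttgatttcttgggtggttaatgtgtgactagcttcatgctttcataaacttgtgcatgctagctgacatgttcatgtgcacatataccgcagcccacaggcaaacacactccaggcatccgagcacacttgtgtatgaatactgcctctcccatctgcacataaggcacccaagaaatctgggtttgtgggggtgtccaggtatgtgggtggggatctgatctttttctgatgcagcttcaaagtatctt
Homer3 held 4 GC boxes, Sipa1l3 held 1 E-box, and Dlgap3 held none of the 4 motifs. The window of Dlg1 shown held 1 E-box and 1 GC box. So did the Dlg1 window at chr16:31663685-31663934, while further windows of Dlg1 held none of the 4 motifs. The E-box was found before a gene that was low in library 5 and before a gene that was high there. The windows of Sipa1l3 and Dlgap3 lie inside the spans that GENCODE M21 gives these genes (chr7:29320372-29518641 and chr4:127169204-127237022), so they stand before a RefSeq start that is not the outermost GENCODE start. The window of Homer3 begins before its GENCODE span (chr8:70282827-70294361) and ends inside it. Its 4 GC boxes lie in the part inside the span. A match is a run of letters and was not tested for binding.

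Of the 49 further postsynaptic genes, 45 had a median FPKM of at least 1. Of these 45, 24 were lowest in library 5, beside 26.0% of all genes, and 7 highest, beside 21.1%. At least 10% below every other library were 11, beside 11.9% of all genes, and at least 10% above were 7, beside 9.2%. The summed FPKM of the 49 was 1570 there and 1650 to 1940 elsewhere. Among the 45, the lowest relative to their median were Sipa1l2, the third SPAR paralog, with 6.40 FPKM in library 5 and 10 to 13.5 elsewhere, Nsmf, a synapse-to-nucleus messenger gene, with 161 and 208 to 269, Iqsec3, an Arf exchange factor gene of inhibitory synapses, with 11.3 and 14.3 to 18.4, and Dlg5 with 3.46 and 4.68 to 5.69. Some other paralogs of the 33 in the further list lay within the range of the other libraries. Examples were Magi1 (2.19, others 1.98 to 2.35), Magi3 (7.04, others 6.49 to 7.57) and Grip2 (1.54, others 1.28 to 1.78). Others lay below that range, such as Cyfip1 (15.2, others 17.0 to 19.7), Rapgef2 (4.17, others 4.45 to 5.55) and Rapgef3 (2.15, others 2.59 to 4.05). Homer1 lay above it, as given earlier. Among the 45, the highest relative to their median were Actn2, the gene of the actin crosslinker alpha-actinin 2, with 20.9 and 3.49 to 4.58, Akap5, which anchors protein kinase A, with 20.4 and 8.14 to 11.0, Ppp1r9a (neurabin) with 18.0 and 8.65 to 11.3, and Arhgap33 with 26.0 and 13.3 to 16.0.

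Other cell type lists differed between libraries as well. CA1 genes summed to 161 FPKM in library 5 against 205 to 242 elsewhere, with 6 of 10 lowest there, and dentate granule cell genes to 210 against 220 to 258, with 9 of 13 lowest. Of the CA3 and CA2 list, 8 of 13 were lowest in library 5, although its sum was higher (1320 against 393 to 634). In that list Pcp4, which the striatum also expresses, had 1120 FPKM there and 167 to 421 elsewhere. Mature oligodendrocyte genes summed to 2050 in library 5, 1970 in library 6 and 2230 in library 7 and to at most 1500 elsewhere. Inhibitory neuron genes summed to 635 in library 5 and 639 to 689 elsewhere, but 5 of the 13 were at least 10% above every other library there. Among these were Slc32a1 (44.5 against 16.5 to 18.6), Gad2 (34.4 against 14.8 to 18.5) and Gad1 (100 against 62.1 to 68.7), which mark GABAergic neurons at large. Another 3 of the 13 were at least 10% below every other library in library 5. These were Cck (168 against 260 to 302), Vip (6.25 against 9.36 to 12.7) and Dlx1 (2.27 against 2.94 to 3.81). Choroid plexus genes summed to 865 in library 3 and 1130 in library 7 and to 27.6 to 256 elsewhere, and thalamus genes to 131 and 134 in these libraries and 34.7 to 77.9 elsewhere. Astrocyte genes summed to 1010 in library 5 and 950 to 1090 elsewhere. The part of these transcripts in the levels of the 33 genes was not tested.

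**Figure D4:**
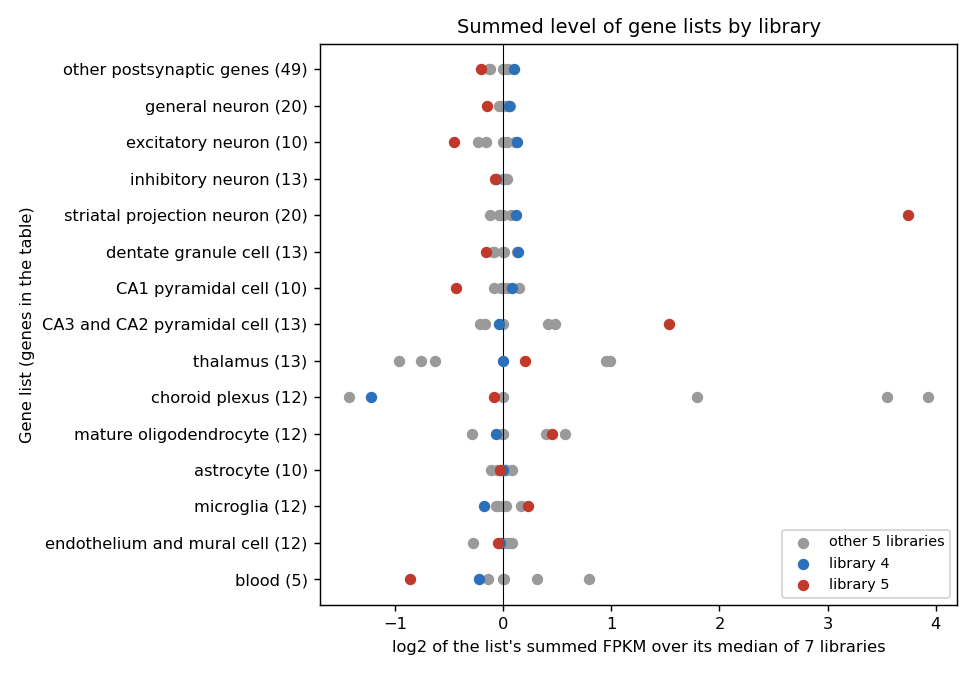
Summed FPKM of each gene list in each library, as log2 over the list's median of 7 libraries; each point is 1 library. The striatal projection neuron list stands at 2410 FPKM in library 5 (red), and the excitatory neuron, CA1 and blood lists are among those lowest there.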

How the data were processed

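RNA of 7 hippocampus samples was sequenced, and the authors deposited 1 table of FPKM values for 27583 genes with 1 column per library. The build was mm10, per the submitters' processing notes. How reads were aligned and counted, with which annotation and strand setting, is not given in the sources used here. The 33 genes and all gene lists were chosen with earlier results of these data known. Columns were matched to samples by library number, and no sample was put in a group, so no test and no mean with SD was computed. No paired analysis applied.

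Each gene was compared between libraries on FPKM as deposited. A gene was called low or high in a library when it lay outside the other 6, with a margin of 10% as a second rule, and shares of all genes used the 12052 genes whose median over the libraries was 1 FPKM or more. Whole reads and gene lengths were read back from the FPKM steps and tested on simulated data; intervals from reads cover counting error only. Of 11 CA1 genes, 10 were in the table. Values in every library are given for the highest gene of each group, for genes 10% outside the other libraries in library 5 and for those with a highest library at least 25% above the lowest. Of the other postsynaptic genes over that same level, the 4 lowest and 4 highest relative to their median in library 5 are named. Positions and transcripts are from GENCODE M21. Scripts used Python 3.11.15, numpy 2.4.6, pandas 2.3.3 and matplotlib 3.10.9.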

Additional observations from a re-analysis of the deposited data

How the results depend on the processing

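Counts of genes low or high in library 5 stayed within 1.5 times the reported ones under scaling to a total of 1000000, to the upper quartile, by median ratios and without mitochondrial genes. The shares of all genes moved as well under these scalings. Lowest in library 5 were 23.2% to 32.9% of all genes, and highest 15.5% to 24.3%. Under scaling to a total, 15 of the 33 were lowest beside 32.9%. With libraries scaled to the general neuron list, 11 genes in place of 5 were highest in library 5 (49.3% of all genes in place of 21.1%). At least 10% above every other library were 7 in place of 2 (23.2% in place of 9.2%). At least 10% below were 7 in place of 9 (5.9% in place of 11.9%). That scaling moved the median of all genes in library 5 by 0.13 on the log2 scale. Of 198 values of single genes under other scalings or log2(FPKM + 1), 12 moved by more than the spread between libraries, all under that scaling. The sign turned there for 6 genes inside the 10% margin (Dlg4, Magi2, Grip1, Pick1, Iqsec1 and Ctnnd2), for Ctnnd2 under upper-quartile scaling and for Sorbs2 under scaling to the total. It turned for none of the 11 genes past the margin. The order of paralogs depended on gene length, in alternatives chosen after seeing the data. As log2 ratios of medians, the exon union gave Dlg4 over Dlg3 0.30, Dlg3 over Dlg2 0.91, Dlg2 over Dlg1 0.99, Shank3 over Shank2 0.79, Dlgap1 over Dlgap3 -0.73, Dlgap3 over Dlgap4 1.06, Dlgap4 over Dlgap2 0.73 and Iqsec1 over Iqsec2 -0.66. The longest transcript gave Dlg4 over Dlg3 1.15, Dlg3 over Dlg2 0.07, Dlg2 over Dlg1 1.24, Shank1 over Shank3 0.14, Shank3 over Shank2 0.85, Dlgap3 over Dlgap4 0.36, Sipa1l1 over Sipa1l3 0.70 and Iqsec1 over Iqsec2 -0.34. These shifts follow from the lengths themselves. Leaving out 1 library in turn, Dlgap1 over Dlgap3 ran from -0.04 (without library 1 or library 2) to 0.11. The count of genes highest in library 4 under other scalings was also chosen after seeing the data. No paired analysis was possible because the labels give no groups.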

Other observations

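Libraries 5, 6 and 7 were the 3 lowest libraries for 11 of the 33 genes (Dlg4, Shank1, Shank2, Dlgap4, Begain, Homer3, Tanc1, Sipa1l3, Agap2, Iqsec2 and Synpo), and for 10.5% of the 12052 genes whose median was 1 FPKM or more. The gap was widest in relative terms for Homer3, Sipa1l3 and Tanc1. Homer3 had at most 18.0 FPKM in these libraries and at least 23.9 in libraries 1 to 4. Sipa1l3 had at most 10.3 and at least 13.4, and Tanc1 at most 14.2 and at least 16.8. For Dlg4 the nearest values were 90.7 and 91.6. The excitatory neuron list summed to 1630, 2000 and 1900 FPKM in libraries 5, 6 and 7 and to 2230 to 2440 elsewhere, and the mature oligodendrocyte list to 2050, 1970 and 2230 and to at most 1500 elsewhere. Their part in this pattern was not tested. This pattern was noticed in the values, and the labels do not say what these libraries share.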
